A study of Mus musculus with 60 samples.

Results

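Reg4, Kit and Spink4 are the 3 genes followed here, out of 55357 genes in the deposited count table of mouse intestinal epithelium. They were chosen by name, as genes used to mark the deep crypt secretory cells of the colon, and each was read in all 60 libraries. The libraries came from 8-week-old mice of the Lgr5-2A-eGFP line, in which eGFP is made together with Lgr5, the R-spondin receptor that stem cells at the crypt base carry. The small intestine was cut into 3 equal parts, called proximal, middle and distal, and the colon into a proximal and a distal part. Crypts were freed with a chelating buffer, cells were separated with TrypLE and sorted by GFP, and polyA RNA was taken from at least 30000 cells of each colon fraction and 50000 cells of each small intestinal fraction. Every group carried the reporter allele and no treatment is named, and a group is 1 of the 5 gut parts combined with 1 of the 3 fractions (GFP-high, GFP-intermediate or GFP-negative), with 4 libraries each. The labels do not say whether replicates are separate animals, so p-values measure only the spread between these libraries.

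Deep crypt secretory cells sit between the Lgr5+ stem cells at the base of colonic crypts, where they take the place that Paneth cells hold in the small intestine, and they supply stem cells with Notch ligands and epidermal growth factor. Kit is the receptor tyrosine kinase for stem cell factor and is also the defining receptor of mast cells and of the pacemaker cells of the gut muscle. Reg4 is a secreted C-type lectin of the regenerating islet-derived family, made by deep crypt secretory cells and by enteroendocrine cells. Spink4 is a secreted protein of the Kazal-type serine protease inhibitor family, found in goblet cells.

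In the GENCODE M21 annotation of GRCm38 (mm10), Reg4 lies on chromosome 3 from 98222156 to 98236748, Kit on chromosome 5 from 75574916 to 75656722 and Spink4 on chromosome 4 from 40920052 to 40931395, each on the plus strand and with 0 other genes overlapping it. The sequence just before the annotated start is shown for Reg4 and Kit, as no promoter window was found for Spink4. It comes from RefSeq on GRCm38.p6, plus strand, chr3:98221906-98222155 for Reg4 and chr5:75574737-75574915 for Kit. Capitals mark CG dinucleotides.
Reg4: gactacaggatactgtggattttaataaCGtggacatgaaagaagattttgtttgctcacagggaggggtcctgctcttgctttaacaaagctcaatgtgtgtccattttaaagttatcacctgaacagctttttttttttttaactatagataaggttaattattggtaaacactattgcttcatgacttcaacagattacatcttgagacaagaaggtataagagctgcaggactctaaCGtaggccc
Kit: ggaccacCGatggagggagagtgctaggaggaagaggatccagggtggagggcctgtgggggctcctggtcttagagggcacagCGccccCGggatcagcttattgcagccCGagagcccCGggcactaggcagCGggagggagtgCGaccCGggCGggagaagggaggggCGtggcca
The 2 sequences differ in composition. Over the 250 bases before the RefSeq start, Reg4 had 37.2% G and C with 2 CG dinucleotides and Kit had 70.8% with 17. For Kit only 179 of those bases are printed, because the annotated gene begins before the RefSeq start, so fewer CG are marked than counted. The medians were 52.4% and 6 over 32851 promoter windows. Lower G and C content than Reg4 was found in 7.31% of those windows, and lower content than Kit in 91.7%. Neither 300-base window held the E-box core CAGCTG on either strand, which 16.3% of all windows held. The TCF/LEF core CTTTGA (16% of windows) and the CDX core TTTATNG (10.9%, N being any base) were not in them either.

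Total counts per library ran from 55411864 to 113917959 with a median of 81230235, so the lowest count of any of the 3 genes was 726, for Kit. Epcam, the epithelial adhesion molecule, stood between 1210 and 3050 CPM (counts scaled to a common library size) in all libraries, and Lgr5 between 145 and 598 CPM in the GFP-high libraries against at most 17.4 CPM in the GFP-negative ones. Ptprc, the pan-leukocyte gene, had a median of 3.86 CPM in GFP-high and 101 CPM in GFP-negative colon libraries, and of 6.36 and 167 CPM in those of the small intestine. The libraries numbered 1 stood apart in sex-linked transcripts. Xist, the X-inactivation RNA, was at 404 to 2110 CPM in the 9 small intestinal libraries numbered 1, and Y-linked Ddx3y was at 0 in all 9. In the 6 colon libraries numbered 1, Xist was at 156 to 487 CPM and Ddx3y at 40.1 to 46.4 CPM. All other libraries had Xist at no more than 1.94 CPM and Ddx3y at 41.3 CPM or more. Where omitting the libraries numbered 1 changes a call of a member, the value without them stands beside the result.

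Levels below are CPM, log2 differences carry a standard error, and a difference is called when its adjusted p in edgeR's quasi-likelihood test, over 23360 genes, is below 0.05. Among the differences computed, the largest of Reg4 and of Kit lay between the organs, and the largest of Spink4 between fractions of the distal small intestine. Reg4 ran from 352 to 2100 CPM in the 24 colon libraries and from 34.5 to 236 CPM in the 36 small intestinal ones, without overlap. Kit ran from 125 to 336 CPM in the colon and from 14.2 to 127 CPM in the small intestine, overlapping between 125 and 127 CPM. Spink4 ran from 304 to 1060 CPM in the colon and from 162 to 1120 CPM in the small intestine, with wide overlap. Per kilobase of annotated transcript, the scale on which different genes may be compared, GFP-negative cells of the distal colon held 1500 CPM of Reg4, 1640 of Spink4 and 31.7 of Kit. In GFP-high cells of the proximal small intestine the same scale gave 105 for Reg4, 401 for Spink4 and 3.29 for Kit. Kit was thus the least abundant of the 3 in both. A bulk library cannot tell fewer cells of a type from less RNA per cell, which holds for all differences here.

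**Figure D1:**
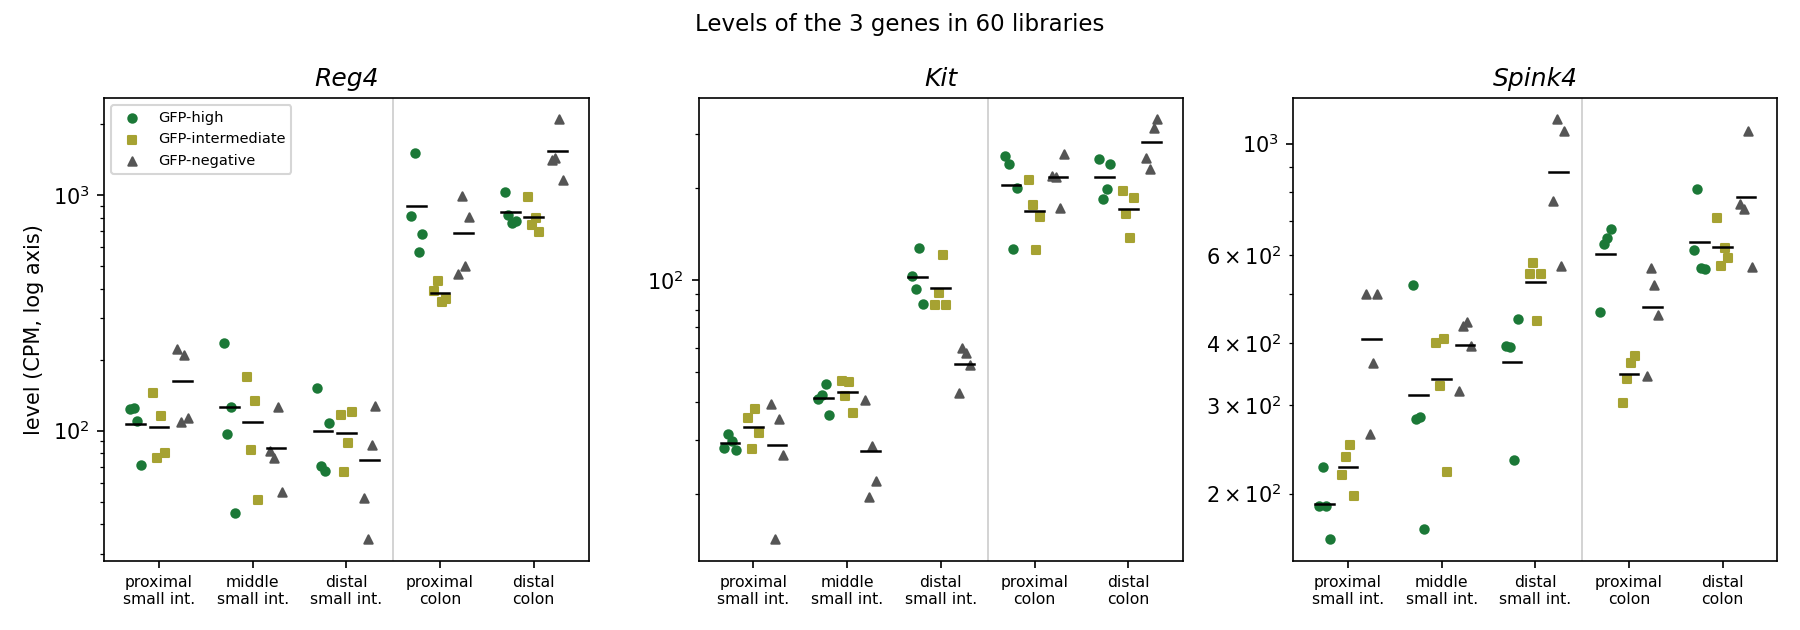
Levels of Reg4, Kit and Spink4 in CPM (log axes with separate ranges) in 60 libraries, by gut part and GFP fraction, where each point is a library and each bar the mean of 4. Reg4 and Kit step up at the vertical line between small intestine and colon, and Kit also rises within the small intestine. Spink4 is as high in the GFP-negative distal small intestine (570 to 1120) as in the colon.

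Reg4 in the colon was highest in GFP-negative cells of the distal part, where the 4 libraries read 1410, 1440, 2100 and 1160 CPM. GFP-high cells there read 1030, 822, 763 and 774 CPM, and GFP-intermediate cells 982, 748, 799 and 694 CPM. The GFP-negative libraries lay above all others of the distal colon. Even so, the log2 difference of GFP-high from GFP-negative cells was -0.85 ± 0.37 with an adjusted p of 0.0815, and it was not called. It was called by the DESeq2 Wald test (-0.89, adjusted p = 0.0467) and in a fit of the 2 groups alone (-0.85, adjusted p = 0.0064). In the proximal colon Reg4 read 818, 1510, 570 and 681 CPM in GFP-high cells and 463, 990, 500 and 808 CPM in GFP-negative cells. These groups overlapped, and their log2 difference of 0.37 ± 0.36 became 0.00 without GFP-high replicate 2, the library at 1510. GFP-intermediate cells of the proximal colon read 392, 433, 352 and 361 CPM, below every other colon library. Their difference from GFP-high cells, 1.22 ± 0.37 on the log2 scale, had an unadjusted p of 0.00178 and an adjusted p of 0.23 in the edgeR fit, in a comparison that called 10 genes in all (0.0428%).

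In the small intestine Reg4 was lower and more scattered. GFP-high cells read 123, 125, 110 and 71.5 CPM in the proximal part, 236, 96.9, 126 and 44.9 CPM in the middle part and 152, 70.8, 67.7 and 108 CPM in the distal part. GFP-negative cells read 221, 109, 209 and 113 CPM in the proximal part, 81.6, 76.4, 126 and 55.1 CPM in the middle part and 51.8, 34.5, 87 and 127 CPM in the distal part. The fractions overlapped in every small intestinal part. GFP-high minus GFP-negative log2 differences were -0.60 ± 0.37, 0.57 ± 0.37 and 0.41 ± 0.36 from proximal to distal, and without the libraries numbered 1 they were -0.47, 0.08 and -0.01. The coefficient of variation of Reg4 within a group reached 64.1%, in GFP-high cells of the middle part, against highest values of 38.4% for Kit and 46.9% for Spink4. In 0 of the 15 comparisons between fractions of a part was Reg4 called.

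In the middle and distal small intestine, though not in the proximal part, both GFP-positive fractions had more Kit than the GFP-negative one. In the distal part, GFP-high cells read 103, 93.3, 127 and 83.6 CPM and GFP-intermediate cells 82.7, 90.6, 121 and 82.9 CPM, while GFP-negative cells read 42.7, 59.9, 57.6 and 52.6 CPM. Both GFP-positive fractions lay above every GFP-negative library. Against GFP-negative cells, Kit was higher in GFP-high cells by 0.94 ± 0.21 on the log2 scale, 1.91-fold (edgeR quasi-likelihood test, adjusted p = 0.000163), and higher in GFP-intermediate cells by 0.83 ± 0.21 (adjusted p = 0.000922). In the middle part GFP-high cells read 41, 42.1, 45.6 and 36.3 CPM and GFP-negative cells 40.5, 19.5, 28.6 and 22.1 CPM, overlapping only through GFP-negative replicate 1. The difference of 0.58 ± 0.21 was called (adjusted p = 0.0193), but not without GFP-high replicate 3 (0.52, adjusted p = 0.0531) and not without replicate 2 (0.44, adjusted p = 0.102) or 4 (0.48, adjusted p = 0.0748) of the GFP-negative cells. GFP-intermediate cells of the middle part, at 46.9, 41.8, 46.4 and 36.7 CPM, were higher than GFP-negative cells by 0.63 ± 0.21 (adjusted p = 0.0117), a call lost without GFP-negative replicate 2 (0.50, adjusted p = 0.0705) or 4 (0.54, adjusted p = 0.0527). The proximal part showed no call, with GFP-high cells at 28.3, 31.5, 29.8 and 27.9 CPM, GFP-negative cells spread over 39.5, 14.2, 35.1 and 26.9 CPM, and a log2 difference of 0.02 ± 0.21.

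Kit did not show that pattern in the colon. GFP-high cells of the distal colon read 249, 184, 199 and 240 CPM, GFP-intermediate cells 196, 165, 137 and 186 CPM and GFP-negative cells 250, 231, 314 and 336 CPM. The GFP-intermediate cells lay below every GFP-negative library and were lower by 0.72 ± 0.21 on the log2 scale (log2 difference -0.72, edgeR adjusted p = 0.0164), a call lost without replicate 3 of the GFP-intermediate cells (-0.62, adjusted p = 0.1) and without replicate 4 of the GFP-negative cells (-0.63, adjusted p = 0.0757). GFP-high and GFP-negative cells overlapped and differed by -0.38 ± 0.21 (adjusted p = 0.187). In the proximal colon, GFP-high cells read 254, 240, 126 and 200 CPM and GFP-negative cells 219, 217, 172 and 259 CPM, with a difference of -0.08 ± 0.21. The test of the organs against each other gave a GFP-high minus GFP-negative difference that was lower in the colon than in the small intestine by 0.74 (log2 -0.74 ± 0.19, adjusted p = 0.00168), in a comparison that called 32.2% of genes. Omitting the libraries numbered 1 moved it to -0.95.

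Kit RNA also comes from mast cells, so their transcripts are given beside it. Of 12 mast cell markers, Cpa3, the mast cell carboxypeptidase, was at 0 in 8 of 8 GFP-high colon libraries and in 11 of 12 GFP-high small intestinal libraries. The summed level of the 12 was 0.295 to 10.9 CPM in GFP-high and 5.01 to 32.3 CPM in GFP-negative colon cells, and 0.7 to 3.62 CPM against 6.73 to 116 CPM in the small intestine. Most of the colon GFP-high sum was Cma1, at up to 10.2 CPM, whereas Mcpt2, Mcpt4, Fcer1a and Ms4a2 were at 0 in all 8. Mast cell sums and Kit went together in some GFP-negative groups and not in others. The GFP-negative library with the highest mast cell sum was also the one with the highest Kit in the proximal small intestine (replicate 1, sum 116, Kit 39.5 CPM) and in the middle part (replicate 1, sum 92.8, Kit 40.5 CPM). Replicate 2 of those groups had the lowest sums, 7.69 and 6.73 CPM, and the lowest Kit, 14.2 and 19.5 CPM. In the distal small intestine the lowest sum (replicate 2, 8.57 CPM) came with the highest Kit, 59.9 CPM, and the highest sum (replicate 4, 52.7 CPM) with 52.6 CPM. In the proximal colon the highest sum (replicate 3, 18.7 CPM) came with the lowest Kit, 172 CPM. The distal colon sums were 19.4, 17.3, 20 and 32.3 CPM in replicates 1 to 4, the same order as Kit (250, 231, 314 and 336 CPM). The part of mast cells in the Kit level of GFP-negative cells was not tested. Without the libraries numbered 1, the GFP-high minus GFP-negative difference of Kit in the middle part was 0.84 (adjusted p = 0.00376) and in the proximal part 0.25 (adjusted p = 0.438).

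**Figure D2:**
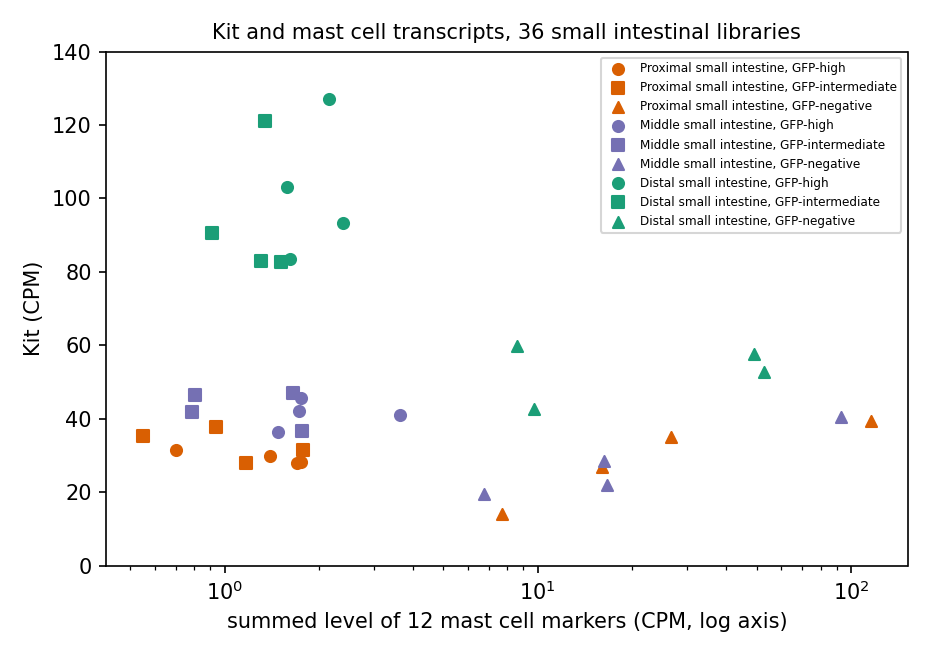
Kit level (CPM) against the summed level of 12 mast cell markers (CPM, log axis) in the 36 small intestinal libraries, coloured by part and shaped by fraction. GFP-negative libraries (triangles) lie at sums of 6.73 to 116, and GFP-high and GFP-intermediate libraries at sums of at most 3.62.

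Pacemaker cells of the gut muscle, the other Kit-positive cells named above, were looked for in the same way, with smooth muscle genes read beside them. Smooth muscle genes Acta2, Myh11, Des and Cnn1 stayed below 1 CPM in all 60 libraries. Ano1, the chloride channel that marks pacemaker cells, was at 24.9 to 219 CPM in colon libraries and at no more than 11.7 CPM in small intestinal ones, and Thbs4 at 16.1 to 526 CPM and at no more than 1.08 CPM. The other 8 of the 10 markers reached at most 5.45 CPM (Etv1), so Ano1 and Thbs4 made up most of the summed level. That sum had medians of 71.4 CPM in GFP-high cells of the proximal and 480 CPM in those of the distal colon, where Kit means were 205 and 218 CPM. The part of such cells in the Kit level was not tested.

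Spink4 went the opposite way to Kit in the small intestine. In the distal part GFP-high cells read 394, 392, 234 and 446 CPM, GFP-intermediate cells 548, 578, 442 and 548 CPM and GFP-negative cells 768, 1120, 570 and 1060 CPM. All GFP-high libraries lay below all GFP-negative ones, with a log2 difference of -1.26 ± 0.23, 2.4-fold lower (edgeR quasi-likelihood test, adjusted p = 6.73e-06). GFP-intermediate cells were lower than GFP-negative cells as well, at -0.73 ± 0.23 (adjusted p = 0.00696), although 2 libraries of the groups crossed. In the proximal part GFP-high cells read 189, 226, 189 and 162 CPM and GFP-negative cells 502, 263, 364 and 501 CPM, again without overlap, a difference of -1.09 ± 0.23 (adjusted p = 7.73e-05). GFP-intermediate cells of that part, at 218, 237, 250 and 198 CPM, differed from GFP-negative cells by -0.85 ± 0.23 (adjusted p = 0.00192). In the middle part GFP-high cells read 521, 282, 284 and 170 CPM and GFP-negative cells 320, 432, 440 and 394 CPM. They overlapped through GFP-high replicate 1, and the difference of -0.33 ± 0.23 was not called (adjusted p = 0.232). Without that library it was -0.69 (adjusted p = 0.0104), and without all libraries numbered 1 it was -0.76 (adjusted p = 0.0137).

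Paneth cells, the secretory cells of the small intestinal crypt base, were read from 11 markers. Their summed level moved with Reg4 and Spink4 between some libraries and not between others. All 11 were higher in GFP-high cells of each small intestinal part, where 47.1%, 48.3% and 52% of all genes were called against GFP-negative cells. The sums were 5370 to 26300 CPM in GFP-high, 6220 to 19200 CPM in GFP-intermediate and 477 to 1460 CPM in GFP-negative libraries. None of the 11 was at 0 throughout a small intestinal group. In the proximal part, GFP-high sums were 12800, 15000, 12600 and 7790 CPM in replicates 1 to 4, the same order as Reg4. GFP-negative sums there, 1460, 731, 928 and 777 CPM, also kept the order of Reg4. Among proximal GFP-intermediate libraries the lowest sum (replicate 4, 8720 CPM) and the lowest Reg4 (replicate 2, 76.5 CPM) fell in different libraries. In GFP-high cells of the middle part the sums were 26300, 14800, 17700 and 5370 CPM in replicates 1 to 4, the same order as Reg4. The highest and lowest of them were also those of Spink4 (521 and 170 CPM). GFP-intermediate cells there had 17900, 12800, 19200 and 6220 CPM beside Reg4 at 168, 82.7, 133 and 50.7 CPM. In GFP-high cells of the distal part replicate 3 was lowest in the sum (9660 CPM), in Reg4 (67.7 CPM) and in Spink4 (234 CPM). Replicate 2 of that group had the highest sum (18400 CPM) with Reg4 at 70.8 CPM. In GFP-intermediate cells of the distal part the highest sum (replicate 2, 15700 CPM) came with the lowest Reg4, 66.4 CPM. Lyz1, the Paneth cell lysozyme, deviated from its group means with r of 0.43 to Reg4, 0.48 to Spink4 and 0.09 to Kit over 60 libraries, whereas over the 15 group means r was -0.84, -0.53 and -0.76. The part of Paneth cells in these levels was not tested.

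In the colon no fraction difference of Spink4 was called. Distal colon libraries read 612, 810, 564 and 562 CPM in GFP-high, 710, 571, 619 and 591 CPM in GFP-intermediate and 757, 742, 1060 and 568 CPM in GFP-negative cells. Proximal colon libraries read 461, 629, 649 and 674 CPM in GFP-high, 304, 339, 364 and 376 CPM in GFP-intermediate and 344, 565, 523 and 455 CPM in GFP-negative cells. As for Reg4, the GFP-intermediate cells of the proximal colon lay below all GFP-high libraries of that part, with a log2 difference of 0.80 ± 0.23 (unadjusted p = 0.000927, edgeR adjusted p = 0.217). GFP-high and GFP-negative cells differed by 0.36 ± 0.23 in the proximal and -0.29 ± 0.23 in the distal colon. The GFP-high minus GFP-negative difference was higher in the colon than in the small intestine by 0.93 ± 0.21 (adjusted p = 0.000327), and by 1.09 without the libraries numbered 1. This comparison of the organs called 32.2% of all genes.

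The members called between fractions are given beside the share of all genes called. Between GFP-high and GFP-negative cells, the number called was 1 of 3 in the proximal small intestine (47.1% of all genes tested), 1 of 3 in the middle part (48.3%), 2 of 3 in the distal part (52%), 0 of 3 in the proximal colon (25.3%) and 0 of 3 in the distal colon (25.1%). Between GFP-intermediate and GFP-negative cells it was 1 of 3 in the proximal (41.6%), 1 of 3 in the middle (41%) and 2 of 3 in the distal small intestine (44.5%), 0 of 3 in the proximal colon (15%) and 1 of 3 in the distal colon (9.8%). Between GFP-high and GFP-intermediate cells it was 0 of 3 in each part, where 0.449%, 3.58% and 13.5% of genes were called from proximal to distal small intestine, 0.0428% in the proximal and 1.81% in the distal colon. Without adjustment, p was below 0.05 in that comparison for Reg4 and Spink4 in the proximal colon and for Spink4 in the distal small intestine. The change of the GFP-high minus GFP-negative effect along an organ was called for 0 of 3 genes in the colon (0.616%), where it was -1.22 ± 0.52 for Reg4 (distal minus proximal; unadjusted p = 0.0216, edgeR adjusted p = 0.435), and for 0 of 3 in the small intestine (3.54%), where it was 0.92 ± 0.29 for Kit (adjusted p = 0.0661) and 0.59 (adjusted p = 0.485) without the libraries numbered 1. The GFP-high minus GFP-intermediate effect differed between organs for 0 of 3 (0.291%), with 0.71 ± 0.21 for Spink4 (unadjusted p = 0.00124, adjusted p = 0.162). With 3 genes, nothing is read from these counts.

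**Figure D3:**
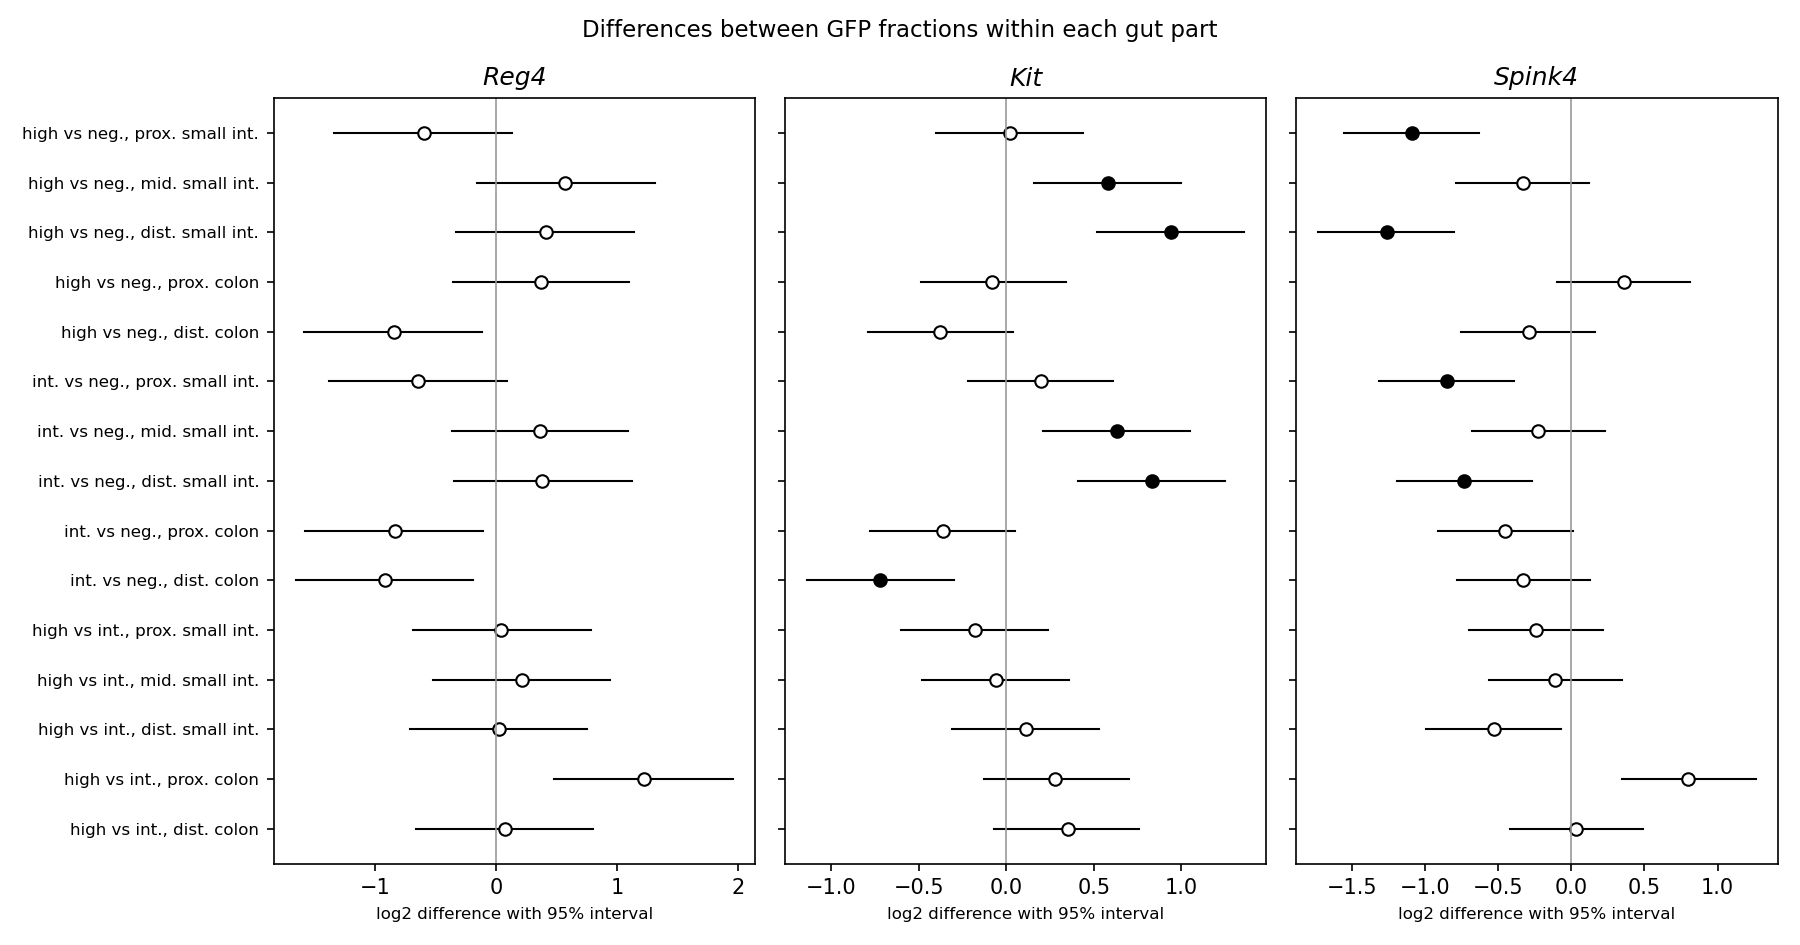
Log2 differences between GFP fractions within each gut part for Reg4, Kit and Spink4, with 95% intervals (separate ranges on the horizontal axes). Filled points are called at an adjusted p below 0.05 in the edgeR fit, and open points are not. All Reg4 points are open, the filled Kit points of the small intestine lie right of 0, and the filled Spink4 points lie left of it.

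Along the length of the gut, the 3 genes took different courses. Between colon and small intestine, Reg4 was higher in the colon by 2.98 ± 0.24 in GFP-high cells (7.88-fold, adjusted p = 1.38e-15), by 2.43 ± 0.23 in GFP-intermediate cells (adjusted p = 8.98e-13) and by 3.34 ± 0.24 in GFP-negative cells (10.1-fold, adjusted p = 1.62e-17). Kit was higher in the colon by 2.09 ± 0.13, 1.73 ± 0.13 and 2.82 ± 0.14 in the same fractions (edgeR adjusted p of 2.97e-19, 2.9e-16 and 1.67e-24). Spink4 was higher by 1.14 ± 0.14 in GFP-high (adjusted p = 2.55e-09) and 0.43 ± 0.15 in GFP-intermediate cells (adjusted p = 0.0119), while GFP-negative cells differed by 0.22 ± 0.15 (95% interval -0.07 to 0.51). The organ comparisons thus called 3 of 3 genes in GFP-high (42.2% of all genes), 3 of 3 in GFP-intermediate (44.1%) and 2 of 3 in GFP-negative cells (50.5%). Their background is high, and organ differences of this kind were common across the transcriptome.

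The step from the end of the small intestine to the start of the colon was read separately. Reg4 in the proximal colon was above the distal small intestine by 3.17 ± 0.40 in GFP-high, 1.97 ± 0.38 in GFP-intermediate and 3.20 ± 0.40 in GFP-negative cells, all called and without overlap. Kit was above it by 1.01 ± 0.21, 0.84 ± 0.21 and 2.03 ± 0.22, all called, though the GFP-high libraries overlapped at 126 and 127 CPM and the GFP-intermediate call was lost without the libraries numbered 1 (0.64, adjusted p = 0.0513). From proximal to distal small intestine Kit rose by 1.79 and 1.51 in GFP-high and GFP-intermediate cells, more than at this step. In GFP-negative cells that rise, 0.88, was smaller than the step. Spink4 split by fraction. In GFP-high cells it was higher in the proximal colon by 0.72 ± 0.23 (adjusted p = 0.0153), a call lost without distal small intestine GFP-high replicate 3 (0.56, adjusted p = 0.0943). In GFP-negative cells Spink4 was lower in the proximal colon, at -0.90 ± 0.23 (adjusted p = 0.00141). In GFP-intermediate cells the difference of -0.61 ± 0.23 (adjusted p = 0.0388) was lost in 7 of 8 fits with a library left out, and without all libraries numbered 1 (-0.54, adjusted p = 0.143). Called at this step were 23.9% of all genes in GFP-high, 26.3% in GFP-intermediate and 35.2% in GFP-negative cells, against 3 of 3 members in each.

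Within the small intestine Kit and Spink4 increased towards the distal end. From proximal to distal, Kit was higher by 1.79 ± 0.21 in GFP-high cells (3.47-fold, adjusted p = 1.03e-08), 1.51 ± 0.21 in GFP-intermediate cells (adjusted p = 4.18e-07) and 0.88 ± 0.21 in GFP-negative cells (adjusted p = 0.00185). The last was not called in a fit of those 2 groups alone (0.92, adjusted p = 0.0825). In each fraction the distal libraries lay above all proximal ones. Spink4 was higher by 0.94 ± 0.23, 1.23 ± 0.23 and 1.11 ± 0.23 in the 3 fractions (edgeR adjusted p of 0.0035, 9.96e-05 and 0.000296), also without overlap. Reg4 did not follow, with -0.11 ± 0.36 in GFP-high and -0.09 ± 0.36 in GFP-intermediate cells. In GFP-negative cells Reg4 was lower distally at -1.12 ± 0.37 (adjusted p = 0.0295). That call was lost without the libraries numbered 1 (-0.80, adjusted p = 0.222), without proximal replicate 1 (-0.94, adjusted p = 0.103) or 3 (-0.98, adjusted p = 0.09), and without distal replicate 1 (-0.98, adjusted p = 0.0994) or 2 (-0.88, adjusted p = 0.123). Members called were 2 of 3 in GFP-high (11.8% of all genes), 2 of 3 in GFP-intermediate (8.81%) and 3 of 3 in GFP-negative cells (15.6%).

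Within the colon the distal part held more Reg4 and Spink4 outside the GFP-high fraction. Reg4 in GFP-negative cells was higher distally by 1.15 ± 0.37 (adjusted p = 0.0282), with no overlap between 1160 to 2100 and 463 to 990 CPM. The call was lost without distal replicate 3 (0.95, adjusted p = 0.115) or proximal replicate 1 (1.00, adjusted p = 0.0968) or 3 (1.02, adjusted p = 0.114), and without all libraries numbered 1 (1.05, adjusted p = 0.0946). In GFP-intermediate cells Reg4 differed by 1.07 ± 0.37 without overlap, at an adjusted p of 0.0671 that fell to 0.0317 in the DESeq2 Wald test. Spink4 was higher distally by 0.85 ± 0.23 in GFP-intermediate (adjusted p = 0.0107) and by 0.73 ± 0.23 in GFP-negative cells (adjusted p = 0.0239), calls that were lost without the libraries numbered 1 (0.73, adjusted p = 0.0936, and 0.65, adjusted p = 0.0942). The GFP-negative call was also lost without distal replicate 3 (0.55, adjusted p = 0.147) or proximal replicate 1 (0.60, adjusted p = 0.1). GFP-high cells of both colon parts were close for all 3 genes, with differences of -0.08 ± 0.36 for Reg4 (95% interval -0.81 to 0.65), 0.09 ± 0.21 for Kit (-0.33 to 0.50) and 0.08 ± 0.23 for Spink4 (-0.38 to 0.53), the last at -0.01 without the libraries numbered 1. Kit was not called in any fraction. The members called were 0 of 3 in GFP-high (7.8% of all genes; unadjusted p above 0.05 for each), 1 of 3 in GFP-intermediate (7.34%) and 2 of 3 in GFP-negative cells (13.6%).

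**Figure D4:**
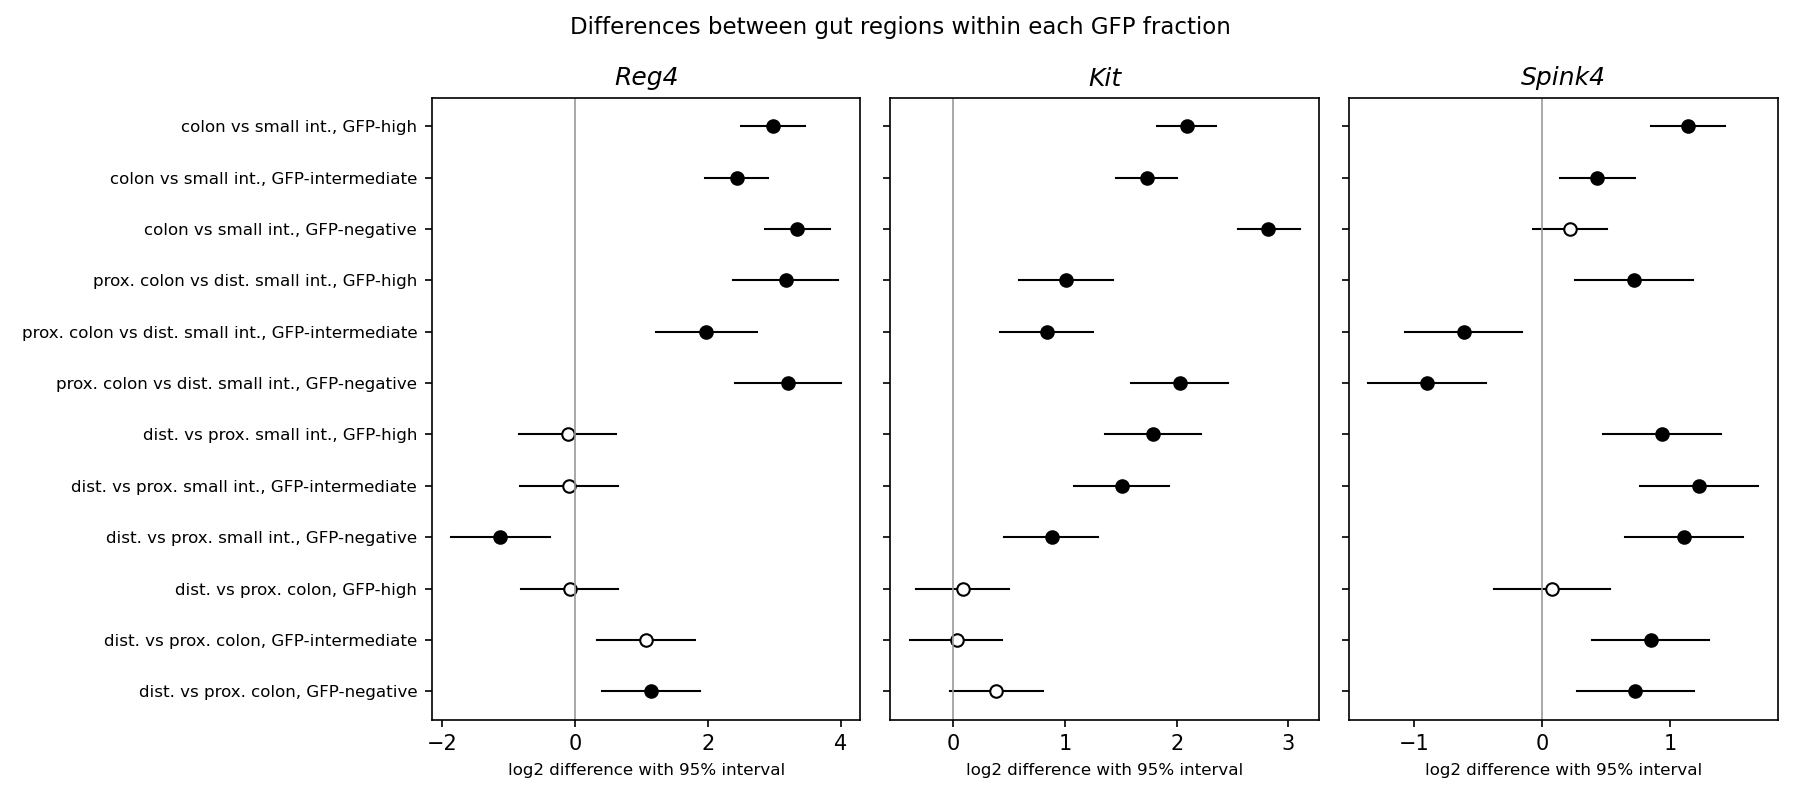
Log2 differences between gut regions within each GFP fraction for Reg4, Kit and Spink4, with 95% intervals (separate ranges on the horizontal axes). Filled points are called at an adjusted p below 0.05 in the edgeR fit. Reg4 separates the organs by 2.43 to 3.34 and is nearly flat within the small intestine in GFP-high and GFP-intermediate cells, whereas Kit and Spink4 are higher distally in all small intestinal fractions.

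Ordered by mean level over the 15 groups, Reg4 fell from 1530 ± 403 CPM (SD, n = 4) in GFP-negative distal colon to 75.1 ± 40.9 CPM in GFP-negative distal small intestine. The 6 colon groups held the top 6 places, and among 14 neighbouring pairs the libraries separated in 2, between GFP-negative and GFP-intermediate cells of the proximal colon and between the latter and GFP-negative cells of the proximal small intestine. Kit ran from 283 ± 50.4 CPM in GFP-negative distal colon to 27.7 ± 9.35 CPM in GFP-negative middle small intestine. It too had the colon groups in the top 6 places, and its libraries separated in 1 neighbouring pair, GFP-intermediate and GFP-negative cells of the distal small intestine (94.4 ± 18.3 and 53.2 ± 7.63 CPM). Spink4 was highest in GFP-negative distal small intestine (879 ± 257 CPM) and lowest in GFP-high proximal small intestine (191 ± 26.2 CPM). No pair of its neighbours separated.

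Across the 15 group means on the log2 scale, Reg4 and Kit correlated with Pearson's r of 0.86, Kit and Spink4 with 0.62 and Reg4 and Spink4 with 0.51. These are descriptions over groups that share the organ step. Within the 9 small intestinal means r was -0.32 for Reg4 and Kit, 0.42 for Kit and Spink4 and -0.49 for Reg4 and Spink4, and within the 6 colon means it was 0.81, 0.65 and 0.96. Library by library, after each group mean was subtracted, Reg4 and Spink4 deviated together with r of 0.51 over 60 libraries, Reg4 and Kit with 0.36 and Kit and Spink4 with 0.01. All pairs of the 3 genes thus had a positive r over the colon means, whereas over the small intestinal means only Kit and Spink4 did.

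The genes whose group means followed each member most closely were taken by rank among 11179 genes that reached 10 CPM as a mean of a group. For Reg4 they were Slc44a3 (r = 0.974), Arhgef37 (0.973), Rnf11 (0.973), Abo (0.971) and Slc50a1 (0.970), all highest in GFP-negative distal colon. For Kit they were Sh3bgrl2 (r = 0.984), Sidt1 (0.977), Nt5dc3 (0.977), Lypd6b (0.976) and Sgsm3 (0.975). For Spink4 the likeness was lower, with Dpagt1 (r = 0.927), Rasa4 (0.923), Sh3bgrl3 (0.923), Gsn (0.917) and Capn8 (0.902). Over the 60 single libraries r lay between 0.911 and 0.930 for the Reg4 set, 0.936 and 0.956 for the Kit set and 0.802 and 0.840 for the Spink4 set.

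Other genes of the deep crypt secretory niche were read beside the members. Egf, the growth factor these cells supply, was higher in the colon in every fraction, by 2.25 ± 0.17, 2.11 ± 0.17 and 3.54 ± 0.18 from GFP-high to GFP-negative cells. In GFP-high against GFP-negative cells Egf was higher in the middle (1.16 ± 0.27, adjusted p = 0.000367) and distal small intestine (1.07 ± 0.27, adjusted p = 0.00073) and lower in the distal colon (-0.85 ± 0.26, adjusted p = 0.0132). Its group means correlated with those of Kit at r of 0.96 and its deviations from them at 0.73 over 60 libraries, against 0.93 and 0.47 for Reg4 and 0.47 and 0.18 for Spink4. The Notch ligand Dll1 went the other way between organs and was lower in the colon in every fraction, by log2 differences of -0.85 ± 0.17, -1.15 ± 0.17 and -0.79 ± 0.17. In GFP-high against GFP-negative cells of the distal colon Dll1 (-0.65 ± 0.25, adjusted p = 0.0498) and the second Notch ligand Dll4 (-0.58 ± 0.21, adjusted p = 0.0397) were both lower. Cd24a, a surface glycoprotein used to sort these cells and Paneth cells, was higher in GFP-high cells of all 3 small intestinal parts, by 1.70 ± 0.21, 2.53 ± 0.22 and 2.53 ± 0.22, and of the proximal colon, by 0.56 ± 0.21 (adjusted p = 0.0399). In GFP-negative distal colon, where Reg4 and Kit were at their highest mean, Egf was at 21.7 ± 3.55 CPM and Dll1 at 63.7 ± 14.3 CPM.

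Transcription factors of the secretory lineages formed a list of 10. Shares of all genes called between GFP-high and GFP-negative cells were 47.1%, 48.3%, 52%, 25.3% and 25.1% from proximal small intestine to distal colon. In GFP-high against GFP-negative cells, 4 rose and 6 fell in the proximal small intestine, 3 rose and 6 fell in the middle and in the distal part, 1 rose and 0 fell in the proximal colon, and 0 rose and 4 fell in the distal colon, with medians of -0.58, -0.74, -0.74, 0.00 and -0.36 against medians between -0.04 and 0.00 over all genes. Atoh1, the factor needed for all secretory cells, was lower in GFP-high cells of the small intestine by log2 differences of -1.21 ± 0.23, -1.08 ± 0.23 and -0.88 ± 0.23, and of the distal colon (-0.87 ± 0.23, adjusted p = 0.00359). Sox9, which is needed for Paneth cells and is also active in crypt progenitors, was higher there by 3.35 ± 0.23, 3.10 ± 0.23 and 3.21 ± 0.23 and in the proximal colon by 0.82 ± 0.21. Between organs 9, 10 and 9 of the 10 were higher in the colon from GFP-high to GFP-negative cells. The shares of all genes called between organs were 42.2%, 44.1% and 50.5% in the same fractions. Atoh1 group means correlated with those of Kit, Spink4 and Reg4 at r of 0.88, 0.86 and 0.81.

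Goblet granule and mucus genes, a list of 18, were lower in GFP-high cells, set against GFP-negative cells, for 14, 15 and 15 genes in the small intestinal parts, 5 in the proximal colon and 11 in the distal colon, and higher for 0, 0, 0, 0 and 1. The medians were -2.11, -1.95, -1.99, -0.33 and -0.86. These comparisons called 47.1%, 48.3%, 52%, 25.3% and 25.1% of all genes, and the 5 of 18 in the proximal colon were near that share. Muc2, the main gel-forming mucin, stood at 443 ± 82.7 CPM in GFP-high and 5070 ± 1950 CPM in GFP-negative cells of the proximal small intestine, and at 13800 ± 1880 and 17700 ± 4910 CPM in the distal colon. Set against Muc2, the members looked different from their plain levels. For every 1000 CPM of Muc2, Kit had 67.9 ± 12.9 CPM in GFP-high and 6.88 ± 5.41 CPM in GFP-negative proximal small intestine, and 15.9 ± 2.26 and 16.4 ± 2.48 CPM in the distal colon. Spink4 had 443 ± 101 and 95.1 ± 63.5 CPM per 1000 of Muc2 in the same proximal fractions, and 47.4 ± 13.8 and 45.3 ± 10.6 CPM in the distal colon. Reg4 had 253 ± 93.5 and 39.2 ± 29.9 CPM in the former, and 62.6 ± 14.1 and 88.2 ± 18.4 CPM in the latter. So although Spink4 was lower in GFP-high small intestinal cells, its mean ratio to Muc2 was higher there than in GFP-negative cells in each of the 3 parts (256 ± 88.7 against 103 ± 40.4 CPM in the distal part, with overlap).

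**Figure D5:**
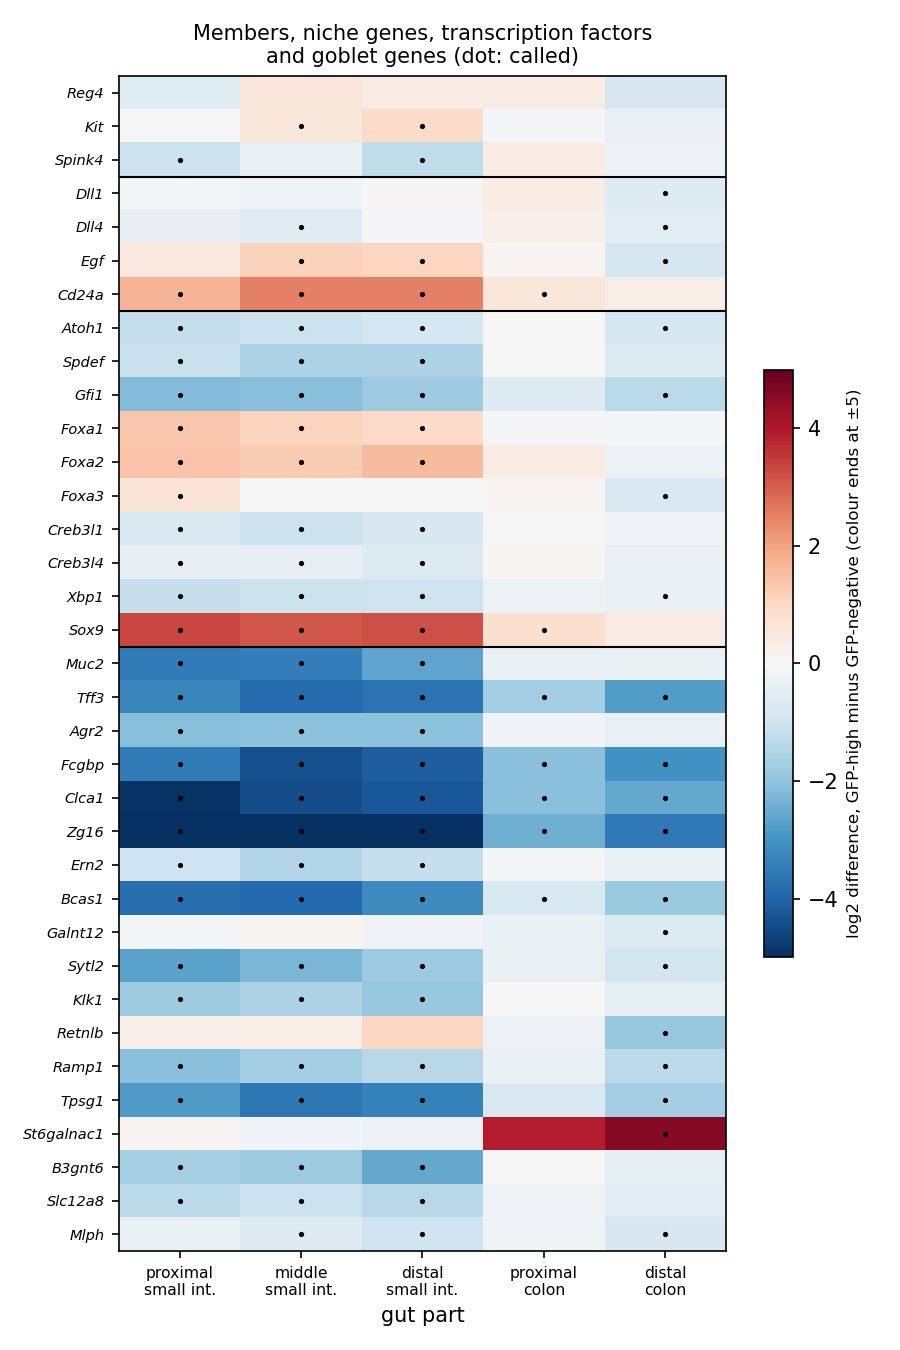
Log2 differences of GFP-high minus GFP-negative cells in 5 gut parts for the 3 members, 4 niche genes, 10 transcription factors and 18 goblet genes, with colour ends at 5 in either direction. A dot marks a call in the edgeR fit. The goblet block is mostly blue with dots in the small intestine, where Kit carries dots on red in the middle and distal parts and Spink4 dots on blue in the proximal and distal parts.

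Kitl, the ligand of Kit, was measured in all groups. It lay between 114 ± 12.1 CPM (GFP-intermediate distal small intestine) and 175 ± 31.7 CPM (GFP-high proximal colon), and GFP-high minus GFP-negative log2 differences ran from -0.16 ± 0.19 to 0.22 ± 0.19, none of them called. In the colon Kitl was higher than in the small intestine by 0.37 ± 0.12 in GFP-high (adjusted p = 0.0127) and 0.33 ± 0.12 in GFP-intermediate cells (adjusted p = 0.0258). With 15 genes of Kit signalling it formed a list of 16, of which 2, 2, 4, 2 and 2 rose and 6, 7, 5, 2 and 4 fell in GFP-high against GFP-negative cells from proximal small intestine to distal colon. These are 8, 9, 9, 4 and 6 of 16 called, near the shares of all genes called in the same comparisons (47.1%, 48.3%, 52%, 25.3% and 25.1%). Pik3r1, the regulatory subunit of the lipid kinase that Kit recruits, was higher in all 5 parts, by 1.07 ± 0.17, 1.02 ± 0.17, 1.37 ± 0.17, 0.73 ± 0.17 and 0.69 ± 0.17. Fyn, a Src family kinase with high levels in lymphocytes, was lower in all 5, by log2 differences of -3.71 ± 0.44, -2.89 ± 0.43, -2.10 ± 0.41, -3.69 ± 0.44 and -2.06 ± 0.42. Leukocyte markers moved with it, at a median sum of 27.2 CPM in GFP-high against 725 CPM in GFP-negative small intestinal libraries, and their part was not tested.

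The relatives of Reg4 and Spink4 had other distributions. Of 6 other Reg family genes, 5 were lower in the colon than in the small intestine in each fraction, opposite to Reg4. These organ comparisons called 42.2%, 44.1% and 50.5% of all genes from GFP-high to GFP-negative cells. Reg3g, a bactericidal lectin, was at 5910 ± 1980 CPM in GFP-negative distal small intestine and 6.49 ± 8.08 CPM in GFP-negative distal colon, and was lower in the colon by log2 differences of -4.40 ± 0.49, -4.81 ± 0.50 and -6.20 ± 0.53 from GFP-high to GFP-negative cells. In the 3 small intestinal parts Reg3g was also lower in GFP-high cells, at -3.20 ± 0.67, -2.34 ± 0.64 and -2.08 ± 0.64. Of 12 other Spink family genes in the table, 3 passed the filter on low counts. Spink1, the pancreatic trypsin inhibitor, was lower in GFP-high cells of the small intestine at -2.70 ± 0.52, -3.97 ± 0.55 and -4.07 ± 0.55, the same direction as Spink4 there, and lower in the colon than in the small intestine at -1.42 ± 0.33, -1.03 ± 0.33 and -2.66 ± 0.35. The other two went against Spink4 where they were called in the small intestine, though at very low levels. Spink8 was called higher in GFP-high cells of the middle part (adjusted p = 0.032) at a mean of 0.0704 CPM, and Spink5 in those of the distal part (adjusted p = 0.0192) at 0.0576 CPM, each with 0 counts in all 4 GFP-negative libraries.

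Because enteroendocrine cells also make Reg4, their list of 15 markers was read beside it. In GFP-high against GFP-negative cells 12, 13 and 13 of them were lower in the small intestinal parts, 14 in the proximal and 9 in the distal colon. The same comparisons called 47.1%, 48.3%, 52%, 25.3% and 25.1% of all genes. Chga, the enteroendocrine granule protein, correlated with Reg4 at r of 0.20 over the 15 group means and 0.05 over the deviations of 60 libraries. The summed enteroendocrine level was highest in GFP-negative proximal colon replicate 3, at 11700 CPM, a library with 500 CPM of Reg4. The part of enteroendocrine cells in the Reg4 level was not tested.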

How the data were processed

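PolyA RNA-seq counts of 60 libraries (15 groups of 4) were analysed. Per the submitters' processing notes, the authors used STAR, Subread featureCounts and edgeR with mm10, without versions. The deposited unnormalised counts per gene were the measurement used, with the deposited gene lengths for values per kilobase. The log2 RPKM, log2 CPM and log2 TPM values that the authors deposited were not used. The annotation release, kit and strandedness are not given in the sources used here. The 3 genes, the 17 gene lists and the comparisons were chosen with earlier results of these data known. Identifiers carry later versions (Reg4 ENSMUSG00000027876.5, Kit ENSMUSG00000005672.13, Spink4 ENSMUSG00000028415.5) than GENCODE M21, which gave positions only. RefSeq promoter windows matched 2 of the 3 genes, with no entry for Spink4.

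Genes were kept by filterByExpr (minimum count 10; 23360 genes, 99.97% to 99.99% of the counts of a library) and scaled by TMM. One quasi-likelihood fit (edgeR 4.0.16, R 4.3.3) over 60 libraries with 15 group means (45 residual and 5.43 prior degrees of freedom) gave 31 two-sided comparisons, adjusted by Benjamini-Hochberg. Standard errors were obtained from each log2 difference and its F statistic, and CPM use TMM-scaled library sizes. Named genes are the members, up to 4 genes per list and gut part with the smallest p in GFP-high against GFP-negative cells, the 5 most alike per member (r over log2 CPM with prior count 2), and Epcam, Lgr5, Ptprc, Cpa3 and Ano1; other list genes, the library-level pairs and the sex-linked genes were named after their values were seen. A deposited batch number equals the replicate number in 60 of 60 libraries. As a check of pairing, residuals of same-numbered libraries correlated at a mean r of 0.036 over 420 pairs (15% above 0.1). Over 1260 pairs with different numbers and groups the mean r was -0.012 (0.794% above 0.1). Correlations above 0.1 were thus more frequent between same-numbered libraries. Those 420 pairs pool all gut parts and both organs, so pairing within a part was not measured. The main fit treats the fractions of a part as unpaired. Number 1 differs between organs in Ddx3y, so across organs it does not stand for an identical animal or set of animals. Whether any animal is shared between them cannot be told from these values. Alternatives were DESeq2 size factors, no filter (genes with at least 1 count), the DESeq2 1.42.0 Wald test, the other quasi-likelihood form, a replicate block, only the groups compared, each of 60 libraries left out in turn (with the dispersion trend of the full fit) and, chosen after seeing the data, all libraries numbered 1 omitted. The fit was tested on simulated counts for distal against proximal colon GFP-high cells over 23360 genes. Counts were drawn from the dispersion trend alone, without gene-specific spread or shared replicate effects, and changed genes had a mean of at least 10 CPM. The fit called 86% of 100 genes changed by a log2 of 1 and 100% of 100 changed by 2, with 6 unchanged genes called. Power for a gene as scattered as Reg4 was not measured. No pair of libraries within a group agreed within sampling noise (lowest chi-square per degree of freedom 31.6).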

Additional observations from a re-analysis of the deposited data

Results flagged for a closer look

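For 2 of the 3 members the effect of the GFP fraction differed between the organs by a test of the difference itself. That comparison called 32.2% of all genes. The GFP-high minus GFP-negative log2 difference of Kit was lower in the colon than in the small intestine (-0.74, edgeR adjusted p = 0.00168). Both colon parts lay below all 3 small intestinal parts, the closest pair being -0.08 in the proximal colon and 0.02 in the proximal small intestine. With single libraries left out these ran from -0.20 to 0.15 and from -0.21 to 0.20, so their order is not firm. The GFP-high minus GFP-negative difference of Spink4 was higher in the colon (0.93, edgeR adjusted p = 0.000327), with both colon parts above all 3 small intestinal parts. Its closest pair was -0.29 in the distal colon (-0.43 to -0.11 with single libraries left out) and -0.33 in the middle small intestine (-0.69 to -0.13). The same test gave -0.36 (adjusted p = 0.466) for Reg4. In 0 of 45 sets of 4 libraries did a single library of a member lie apart beyond Dixon's critical value of 0.829.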

How the results depend on the processing

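Of 38 called differences of the members, 27 kept their call and direction in every alternative, 11 lost it in at least 1 and 0 changed sign. They include every organ difference called for Reg4, Kit and Spink4. Of 55 differences not called, 7 were called in at least 1 alternative and 18, small in the main analysis, changed sign. The number of libraries per group (4) limits what can be called, the leave-one-out fits keep the dispersion trend of the full fit, and the cause of each change was not tested.

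With the replicate block, 0 calls of the members changed. Reg4 in GFP-high against GFP-intermediate cells of the distal small intestine moved from 0.02 to 0.00. The block fits a single effect per number over all 15 groups, so it cannot take up a pairing confined to a gut part. DESeq2 size factors gave -0.09 for Kit in GFP-high against GFP-negative cells of the proximal small intestine, the DESeq2 Wald test the same -0.09, and no filter and DESeq2 size factors gave -0.60 and -0.59, not called, for Spink4 in GFP-intermediate proximal colon against distal small intestine. The Wald test called Kit in the distal minus proximal small intestine fraction effect (0.90) and Reg4 in distal against proximal colon GFP-intermediate (1.08) and GFP-high against GFP-negative distal colon (-0.89). The other quasi-likelihood form called the second of these (1.07), as did the groups compared alone (1.07), which also called Reg4 in distal colon GFP-high (-0.85) and GFP-intermediate (-0.92) and proximal colon GFP-intermediate (-0.86) against GFP-negative cells, and lost distal against proximal GFP-negative differences of Kit (0.92) and Reg4 (-1.08) in the small intestine and Spink4 (0.71) in the colon.

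Without all libraries numbered 1, calls were lost for Kit (0.64) and Spink4 (-0.54) in GFP-intermediate proximal colon against distal small intestine, for Reg4 in GFP-negative distal against proximal colon (1.05) and small intestine (-0.80), and for Spink4 in GFP-intermediate (0.73) and GFP-negative (0.65) distal against proximal colon. Spink4 in GFP-high against GFP-negative middle small intestine was gained (-0.76). Signs changed for Reg4 in GFP-high against GFP-intermediate (-0.16) and GFP-negative (-0.01) distal small intestine and Spink4 in GFP-high distal against proximal colon (-0.01).

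With single libraries left out, the calls that were lost ranged as follows. For Kit, GFP-high and GFP-intermediate against GFP-negative middle small intestine ran from 0.44 to 0.82 and from 0.50 to 0.88, and GFP-intermediate against GFP-negative distal colon from -0.81 to -0.62. For Reg4, GFP-negative distal against proximal colon ran from 0.95 to 1.37 and small intestine from -1.50 to -0.88. For Spink4, the same colon difference ran from 0.55 to 0.85, and proximal colon against distal small intestine from 0.56 to 0.83 in GFP-high and from -0.69 to -0.56 in GFP-intermediate cells. Calls were gained for the Kit fraction effect in distal minus proximal small intestine (0.73 to 1.14), and for Spink4 in the GFP-high against GFP-intermediate effect of colon minus small intestine (0.64 to 0.83) and GFP-high against GFP-negative middle small intestine (-0.69 to -0.13). Differences near 0 crossed it. For Kit these were distal against proximal colon in GFP-high (-0.08 to 0.20) and GFP-intermediate (-0.08 to 0.16), GFP-high against GFP-intermediate distal small intestine (-0.01 to 0.25), GFP-high against GFP-negative proximal colon (-0.20 to 0.15) and proximal small intestine (-0.21 to 0.20), and GFP-intermediate against GFP-negative proximal small intestine (-0.03 to 0.38). For Reg4 they were distal against proximal colon GFP-high (-0.24 to 0.30), small intestine GFP-high (-0.39 to 0.04) and GFP-intermediate (-0.21 to 0.11), GFP-high against GFP-intermediate distal colon (-0.04 to 0.18), distal (-0.25 to 0.17), middle (-0.28 to 0.50) and proximal small intestine (-0.08 to 0.24), and GFP-high against GFP-negative proximal colon (0.00 to 0.60). For Spink4 they were distal against proximal colon GFP-high (-0.06 to 0.13) and GFP-high against GFP-intermediate distal colon (-0.10 to 0.10) and middle small intestine (-0.46 to 0.10).

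The count of all genes called moved by over 1.5 times in 39 cases, 25 of them between GFP-high and GFP-intermediate cells or their organ effect. There, without libraries numbered 1, it fell from 3165 to 171 in the distal, 836 to 92 in the middle and 105 to 41 in the proximal small intestine, from 422 to 6 in the distal and 10 to 4 in the proximal colon.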
